A study of Danio rerio with 4 samples.

Results

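Motile cilia are built on the axoneme, a ring of microtubule doublets that carries dynein arms, radial spokes and nexin links around a central pair. The genes described here are the rows of the deposited tables whose symbol, as spelled there, names a forkhead or RFX regulator of ciliary genes or a component of that structure: foxj1a and foxj1b, rfx2 to rfx4, the dnah, dnai, dnal, dnaaf, rsph, tekt, cfap and drc families, ccdc40 and related coiled-coil genes, and spag6. The rule found 49 of 29029 genes. All 49 are called axoneme genes below, although the transcription factors and assembly factors among them are not parts of the axoneme. The 49 genes were compared between the 2 classes of sorted olfactory sensory neurons (OSNs) of the study, by axoneme part. The OMP group held 2 libraries from RFP-only cells of OMP:RFP embryos, in which an OMP promoter drives RFP in ciliated OSNs. The TRPC2 group held 2 libraries from Venus-only cells of TRPC2:venus embryos, in which a TRPC2 promoter drives Venus in microvillous OSNs. All embryos were of the Tubingen/TLF strain at 48 hpf, the olfactory epithelia of many embryos were pooled before the sort, and the transgenes need not label every neuron of a class. RNA went through 1 round of T7 amplification for OMP and 2 rounds for TRPC2, and fewer cells were sorted for TRPC2, so class, cell number and amplification cannot be told apart.

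In a motile cilium the outer dynein arms drive the beat and the inner arms shape it. The arms are assembled in the cytoplasm by dedicated factors, carried into the cilium by intraflagellar transport and attached to the doublets by docking proteins, while spokes and central pair pass control signals to them. Foxj1 is the main transcriptional activator of the motile programme in vertebrates, and RFX factors act on genes of motile and immotile cilia alike. Ciliated OSNs bear sensory cilia, which in mammals have a central pair but lack dynein arms and do not beat. The zebrafish olfactory pit also has multiciliated cells whose cilia do beat.

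Levels are given in RPM, reads scaled to the depth of the library, which the authors computed from the read counts of each library. RPM are not scaled by gene length, so levels are compared within a gene and not between genes. Reads counted over genes came to 68098416 and 84599818 in OMP and to 49483362 and 60189797 in TRPC2, and a read was found for 87.6% to 88.0% of genes in OMP and for 61.6% to 62.0% in TRPC2. A count of 3 reads, taken as the detection floor, equals 0.0269 to 0.0278 RPM in OMP and 0.0339 to 0.0356 RPM in TRPC2. This floor covers counting error only, since amplified reads are not independent molecules. Of the markers of the sorted classes, ompb had 185 and 218 RPM in OMP, against 0.24 and 6.95 RPM in TRPC2, and trpc2b had 2.80 and 3.82 RPM in OMP, against 13.5 and 24.2 RPM in TRPC2. Not every marker followed its class. Of 12 ciliated OSN genes, 9 had both OMP libraries on top and slc24a4a had both TRPC2 libraries on top. Of 10 microvillous OSN genes, 4 had both TRPC2 libraries on top, while gnai2a and itpr3 had both OMP libraries on top. Over all genes, 53.3% had both OMP libraries on top and 5.61% had both TRPC2 libraries on top. Markers of other tissues moved with class as well. The 17 red blood cell genes summed to 11680 and 118873 RPM in OMP and to 0.82 and 12.6 RPM in TRPC2, the 20 skin and periderm genes to 5213 and 8365 RPM in OMP and to 1781 and 988 RPM in TRPC2, and the 20 brain and eye genes to 1609 and 1763 RPM in OMP and to 140.8 and 167 RPM in TRPC2. In the opposite direction, 16 pigment and neural crest genes summed to 75.6 and 121 RPM in OMP and to 1780 and 5793 RPM in TRPC2. The part of such cells in the results below was not tested. In pooled cells, fewer cells of a type cannot be told apart from less RNA per cell.

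Axoneme genes were read throughout the OMP libraries and were patchy in TRPC2. Each of the 49 genes had a read in both OMP libraries. In TRPC2, 36 had a read in both libraries, 9 in only 1 and 4 in neither. Summed over the 49 genes, the level was 1480 and 1752 RPM in OMP, against 327 and 257 RPM in TRPC2, a ratio of 5.54 between the class means. The mean was above 1 RPM for 45 genes in OMP and for 31 in TRPC2, but for only 17 of them in both TRPC2 libraries. The 2 OMP libraries both lay above both TRPC2 libraries for 43 of the 49 genes, or 87.8%, where 53.3% of all genes did so. The reverse held for 1 gene, rfx3, where 5.61% of all genes did so. With the genes limited to those with a mean above 1 RPM over the 4 libraries, the first count was 39 of 44, against 53.2% of the 15299 genes at that level. The 5 genes whose libraries overlapped between classes were rfx4, dnah9, dnal4a, cfap45 and cfap36.

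**Figure D1:**
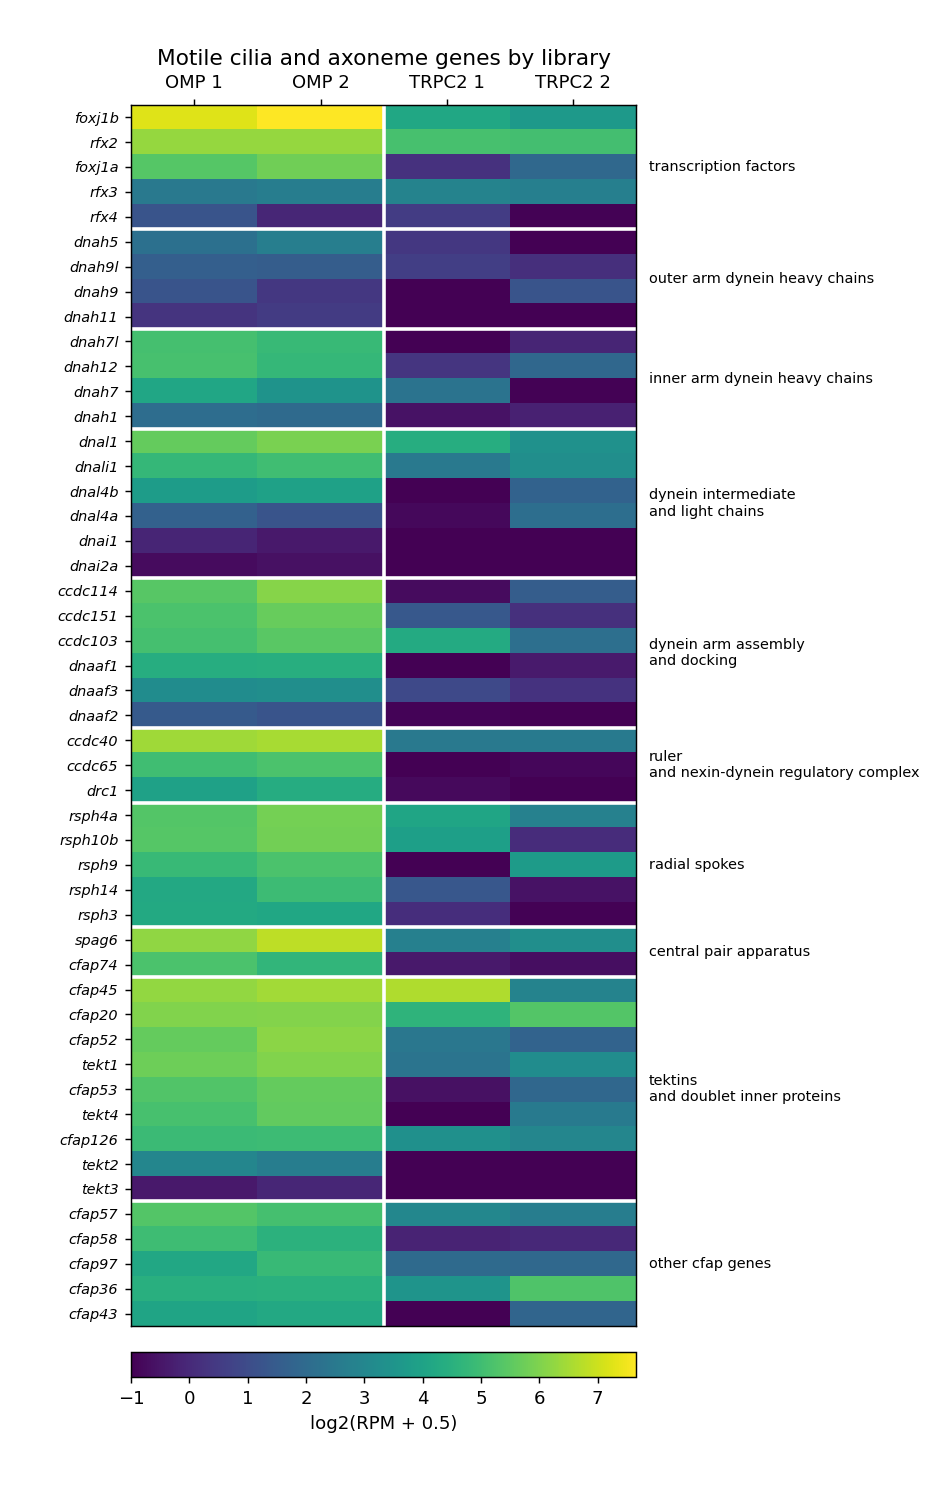
Level of each of the 49 genes, as log2(RPM + 0.5) by colour, in the 2 OMP and the 2 TRPC2 libraries (columns), with genes in rows grouped by axoneme part and ordered within a part by mean RPM in OMP. The OMP columns are alike in nearly every row, while the TRPC2 columns are darker for 43 genes and often differ from each other.

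The class difference was tested over 21026 genes by the quasi-likelihood method of edgeR, and positive log2 fold changes stand for higher levels in OMP. Their median was 2.78 over the 48 tested genes of the axoneme, against 0.49 over all tested genes. The fit scaled the libraries by TMM, while RPM were not so scaled, and this narrowed the gaps seen in RPM. On library totals only, the medians were 3.42 and 1.13. Medians near or above 2.78 with TMM were also found in other lists. They were 2.76 for ciliated OSN genes, 3.16 for brain and eye, 4.65 for hair cells and 16.2 for red blood cells. Over 14 tested skeletal muscle genes the median was 4.93. It was 2.15 for skin and periderm, -1.61 for microvillous OSN genes and -2.86 for pigment and neural crest. Among the 49 axoneme genes only dnai2a had too few reads to be tested. The filter asked for 0.156 CPM (counts scaled to library size) in at least 2 libraries, and 7 of the 48 were below that level in both TRPC2 libraries and so entered only through OMP. Of all 21026 tested genes, 4664 (22.2%) were likewise below it in both TRPC2 libraries. For such genes the direction was largely set by the filter. The median and the counts of called genes below therefore describe the tested genes and are no evidence apart from them. The log2 fold change was above 0 for 43 of the 48, and for 12448 of all 21026 genes. At an adjusted p under 0.05 edgeR called 0 of the 48, against 0% of all genes. The smallest adjusted p of edgeR among them was 0.0721. At an unadjusted p under 0.05, 24 of the 48 were higher in OMP, against 23.3% of all genes, and 0 were higher in TRPC2, against 7.18%. DESeq2 called 24 higher in OMP, against 13.2% of all genes with an adjusted p, and 0 higher in TRPC2, against 5.78%. limma on log2(RPM + 0.5) called 30 higher in OMP, against 23.5% of all genes, and 0 higher in TRPC2, against 0.785%. With either TRPC2 library left out edgeR called 37 (without the second) or 39 (without the first) higher in OMP, against 34.9% and 32.6% of all genes, a fit in which the spread comes from the OMP libraries alone. With 2 libraries against 2, an exact two-sided permutation test of a single gene cannot go below p = 0.333.

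**Figure D2:**
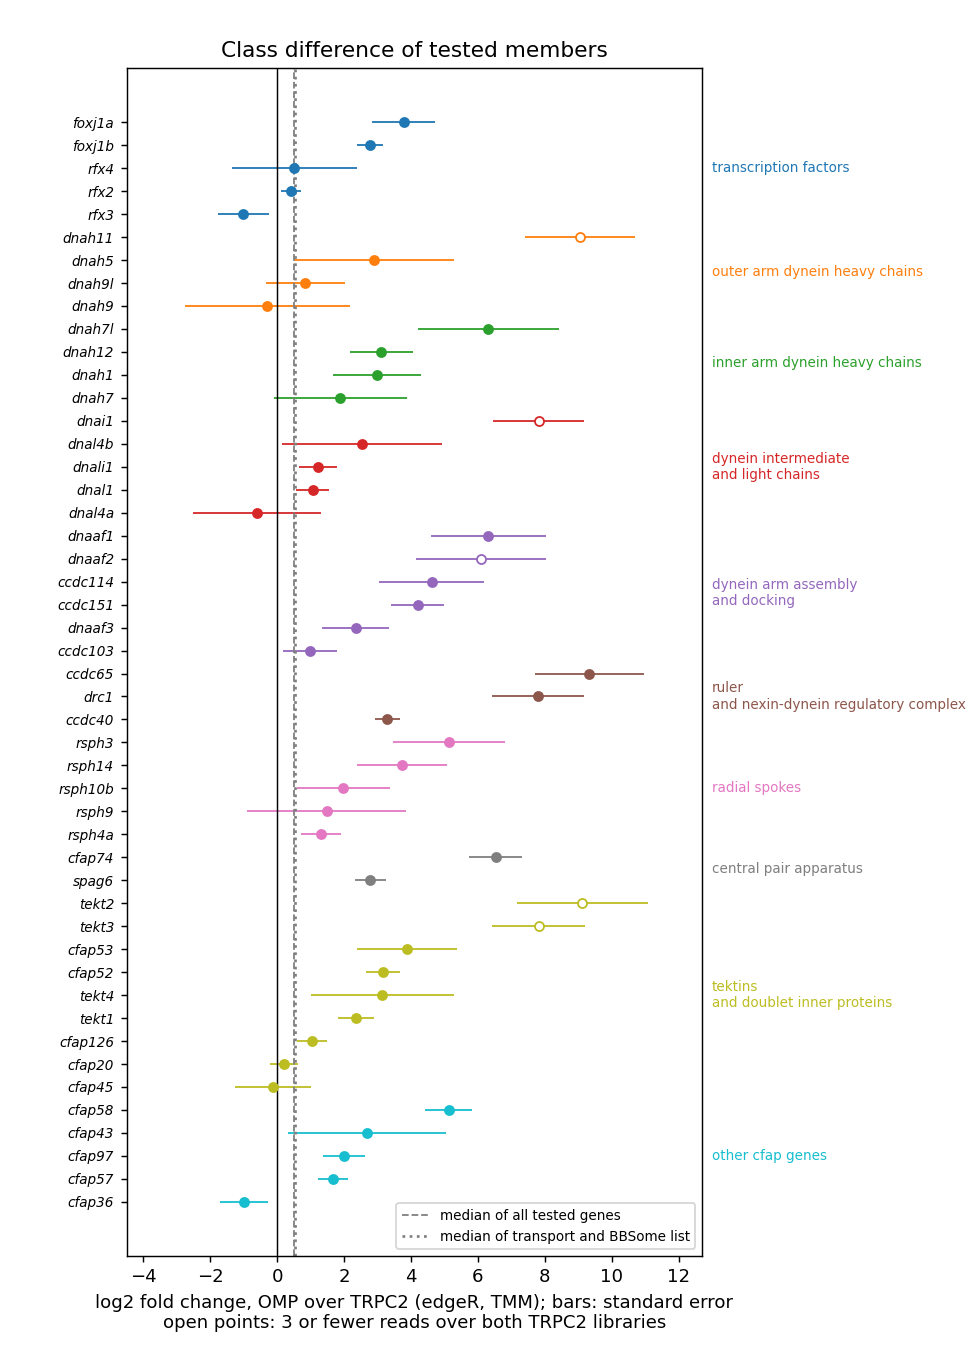
Log2 fold change of OMP over TRPC2 (points, edgeR with TMM scaling) with its standard error (bars) for the 48 tested genes, grouped by axoneme part. The dashed line marks the median of all tested genes at 0.49 and the dotted line that of the transport and BBSome list at 0.53; open points have 3 or fewer reads over both TRPC2 libraries, so that their fitted values depend on the prior count.

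Among the transcription factors the 2 foxj1 genes showed wide gaps in RPM between classes and the 3 rfx genes narrow ones or none. foxj1b had 149.5 and 203 RPM in OMP, against 17.5 and 12.4 RPM in TRPC2. Its log2 fold change was 2.78 with a standard error of 0.39 (edgeR, unadjusted p = 0.00105, adjusted p = 0.0721). Its paralog foxj1a had 41.5 and 54.5 RPM in OMP, against 0.68 and 3.31 RPM in TRPC2, and a log2 fold change of 3.78 (standard error 0.95, unadjusted p = 0.0121 from edgeR). The TRPC2 libraries thus fell below both OMP libraries for each foxj1 gene, though reads of the 2 paralogs may be shared where their sequences are alike. rfx2, which acts with Foxj1 on ciliary genes, had 77.5 and 77.8 RPM in OMP, against 35.0 and 32.8 RPM in TRPC2. Its libraries did not overlap, but the log2 fold change of 0.41 (standard error 0.31) was below the median of all genes. rfx3, another activator of ciliary genes, was the only gene with both TRPC2 libraries on top, at 5.18 and 5.92 RPM in OMP and 6.79 and 6.24 RPM in TRPC2. Its log2 fold change was -1.01 (standard error 0.76, unadjusted p = 0.241 from edgeR), the lowest of the 48 tested genes. When red blood cell genes were taken out of the library totals rfx3 overlapped between classes, at 8.38 and 9.25 CPM in OMP and 12.1 and 8.74 in TRPC2. In the edgeR fit without those genes its log2 fold change stayed at -1.01. rfx4, known from ciliogenesis in the mouse neural tube, had 1.89 and 0.46 RPM in OMP and 0.95 and 0.02 RPM in TRPC2, with a wide overlap.

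The heavy chains are the motors of the dynein arms. The 4 outer arm heavy chain rows spelled in lower case summed to 9.26 and 10.3 RPM in OMP and to 1.83 and 2.49 RPM in TRPC2. The 2 outer arm rows in capitals, of the kind described below, summed to 17.1 and 15.6 RPM in OMP, against no read and 0.27 RPM in TRPC2. dnah5, mutated in human primary ciliary dyskinesia, had 4.05 and 6.10 RPM in OMP, against 0.81 RPM and no read in TRPC2. dnah9l had 2.58 and 2.47 RPM in OMP, against 1.02 and 0.63 RPM in TRPC2. Neither neared the threshold, with unadjusted p of 0.283 and 0.509 from edgeR, and the 2 TRPC2 libraries disagreed for dnah5. The heavy chain dnah9, which shares its name and possibly reads with dnah9l, had 1.89 and 0.81 RPM in OMP, against no read and 1.86 RPM in TRPC2, so that its classes overlapped. dnah11, which in mammals sits in the proximal outer arms, had 0.74 and 0.92 RPM in OMP and no read in TRPC2, which puts its OMP mean at least 23.9-fold higher than the floor of 3 reads per TRPC2 library.

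The inner arm heavy chains were at higher levels in OMP than in TRPC2. Their sum over 4 genes was 89.2 and 68.7 RPM in OMP, against 5.33 and 4.08 RPM in TRPC2. Each of the 4 had both OMP libraries on top, where 53.3% of all genes did so. dnah12 had 34.5 and 26.7 RPM in OMP, against 0.76 and 3.26 RPM in TRPC2, with a log2 fold change of 3.12 (standard error 0.93, unadjusted p = 0.0225 from edgeR). That value was 2.27 without the first TRPC2 library and 4.59 without the second. dnah7l had 33.7 and 28.1 RPM in OMP, against no read and 0.44 RPM in TRPC2. Its namesake dnah7 was split between the TRPC2 libraries, with 17.2 and 10.3 RPM in OMP, against 4.40 and 0.02 RPM in TRPC2. The last, dnah1, had 3.75 and 3.50 RPM in OMP, against 0.17 and 0.36 RPM in TRPC2. Reads may be divided between dnah7 and dnah7l where the 2 rows are alike.

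The smaller subunits of the arms varied widely among themselves. The 6 intermediate and light chain genes summed to 91.7 and 109 RPM in OMP, against 25.8 and 25.9 RPM in TRPC2. dnal1, a light chain bound to the outer arm motor, had 48.3 and 60.5 RPM in OMP, against 20.6 and 9.99 RPM in TRPC2, with a log2 fold change of 1.06 (standard error 0.49). dnali1, a light chain of inner arms, had 26.8 and 31.4 RPM in OMP, against 5.18 and 9.22 RPM in TRPC2, with a log2 fold change of 1.22 (standard error 0.56). Their unadjusted p of 0.0853 and 0.0852 from edgeR missed 0.05. The 2 dnal4 light chain genes each had few or no reads in the first TRPC2 library and more in the second. Their log2 fold changes were 2.53 for dnal4b (standard error 2.38) and -0.61 for dnal4a (standard error 1.91). dnal4b had 13.4 and 15.1 RPM in OMP, against no read and 2.79 RPM in TRPC2. dnal4a had 2.71 and 1.89 RPM in OMP, against 0.07 and 3.88 RPM in TRPC2, so that its second TRPC2 library was the highest of the 4. The intermediate chain rows spelled in lower case were low in OMP as well, and the row DNAI1_(1_of_2) had 18.2 and 24.2 RPM in OMP, against 5.34 RPM and no read in TRPC2. dnai1 had 0.44 and 0.26 RPM in OMP and no read in TRPC2, at least 10.1-fold higher in OMP than the floor, and dnai2a had 0.09 and 0.16 RPM in OMP and no read in TRPC2, at least 3.6-fold higher.

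All 6 assembly and docking genes had both OMP libraries on top, where 53.3% of all genes did so. Over 6 genes the sum was 144 and 193 RPM in OMP, against 22.9 and 8.01 RPM in TRPC2. ccdc114, a subunit of the outer arm docking complex, had 42.1 and 68.3 RPM in OMP, against 0.10 and 2.44 RPM in TRPC2, with a log2 fold change of 4.62 (standard error 1.57, unadjusted p = 0.0346 from edgeR). That value was 3.54 without the first TRPC2 library and 8.33 without the second. Its partner ccdc151 had 36.4 and 49.4 RPM in OMP, against 2.12 and 0.64 RPM in TRPC2, with a log2 fold change of 4.20 (standard error 0.79, unadjusted p = 0.00382 from edgeR). Both docking genes were at a small fraction of their OMP level in each TRPC2 library. ccdc103, needed to attach dynein arms, was less apart, with 33.7 and 43.2 RPM in OMP, against 19.3 and 3.95 RPM in TRPC2. The cytoplasmic assembly factor dnaaf1 had 20.5 and 21.3 RPM in OMP, against 0.01 and 0.28 RPM in TRPC2. dnaaf3 had 8.75 and 9.26 RPM in OMP, against 1.37 and 0.70 RPM in TRPC2. The third assembly factor, dnaaf2, was low in OMP, at 2.27 and 1.89 RPM, against 0.03 RPM and no read in TRPC2, so no ratio is given for it.

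The ruler and the nexin-dynein regulatory complex set the repeat along the doublets and link neighbouring doublets. Over the genes that the rule matched, they had the highest ratio of class means among the 10 axoneme parts, 26.3. Their 3 genes summed to 131 and 149.8 RPM in OMP, against 5.26 and 5.41 RPM in TRPC2. ccdc40, one of the ruler proteins, had 84.8 and 92.9 RPM in OMP, against 5.18 and 5.34 RPM in TRPC2. It had the smallest unadjusted p of the 48 tested genes, 0.000437 (adjusted p = 0.0721, edgeR). Its log2 fold change was 3.29 with a standard error of 0.37. The libraries of each class nearly coincided for ccdc40, which was not so for most of the genes described here. ccdc65, a subunit of the regulatory complex, had 31.4 and 36.9 RPM in OMP, against no read and 0.06 RPM in TRPC2. drc1, which is required to assemble that complex, had 14.9 and 20.1 RPM in OMP, against 0.08 and 0.01 RPM in TRPC2. Both genes of the complex that the rule matched were therefore at or within a few reads of the floor in TRPC2. The subunit gas8, outside the rule and described below, was not near the floor. Its log2 fold change was 1.77 (standard error 0.50), and the ratio of 26.3 leaves it out. Further subunits may also lie outside the rule, so the ratio describes the matched genes only.

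Radial spoke genes were above their TRPC2 levels in OMP, with TRPC2 libraries that often disagreed. The sum of 5 genes was 146 and 198 RPM in OMP, against 33.5 and 20.3 RPM in TRPC2. rsph4a, a spoke head protein, had 40.2 and 57.5 RPM in OMP, against 16.7 and 6.45 RPM in TRPC2, with a log2 fold change of 1.31 (standard error 0.59, unadjusted p = 0.0805 from edgeR). rsph10b had 40.9 and 56.0 RPM in OMP, against 14.2 and 0.57 RPM in TRPC2. rsph9, another spoke head protein, had 28.1 and 36.3 RPM in OMP, against no read and 13.1 RPM in TRPC2. The TRPC2 library with more reads was thus the first for rsph10b and the second for rsph9. rsph14 had 18.3 and 30.5 RPM in OMP, against 2.04 and 0.17 RPM in TRPC2. rsph3, a protein of the spoke stalk, had 18.7 and 17.3 RPM in OMP, against 0.59 and 0.02 RPM in TRPC2.

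Both central pair genes had TRPC2 levels well below OMP. spag6, a protein of the central apparatus, had 75.3 and 110.2 RPM in OMP, against 6.42 and 9.14 RPM in TRPC2, with a log2 fold change of 2.79 (standard error 0.46, unadjusted p = 0.00215, adjusted p = 0.0721 from edgeR). cfap74, a projection protein of the same apparatus, had 36.3 and 25.8 RPM in OMP, against 0.26 and 0.13 RPM in TRPC2. Its log2 fold change was 6.53 with a standard error of 0.79 (unadjusted p = 0.000577 from edgeR).

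Tektins and the other proteins inside the doublets were mixed. Over 9 genes the sum was 355 and 419 RPM in OMP, against 143 and 74.9 RPM in TRPC2. The highest sum in TRPC2 came from 1 gene and 1 library, since cfap45 had 76.3 and 87.0 RPM in OMP, against 99.1 and 6.90 RPM in TRPC2. Without cfap45 the sum over the other 48 genes of the axoneme was 1404 and 1665 RPM in OMP and 228 and 250 RPM in TRPC2, so that the TRPC2 libraries came closer together. cfap20, a protein of the inner junction of the doublet, had 64.2 and 65.4 RPM in OMP, against 24.2 and 40.5 RPM in TRPC2. Its log2 fold change was 0.21 (standard error 0.42), below the median of all genes, and was -0.28 without the first TRPC2 library. cfap52 had 48.9 and 70.4 RPM in OMP, against 4.92 and 2.85 RPM in TRPC2, with a log2 fold change of 3.17 (standard error 0.51, unadjusted p = 0.00202 from edgeR). cfap53 had 39.4 and 48.6 RPM in OMP, against 0.15 and 3.25 RPM in TRPC2. cfap126 had 29.8 and 30.0 RPM in OMP, against 9.61 and 7.40 RPM in TRPC2. The tektins, filament proteins that run along the doublets, each had both OMP libraries on top, where 53.3% of all genes did so. tekt1 had 54.02 and 63.9 RPM in OMP, against 4.56 and 8.71 RPM in TRPC2. tekt4 had 34.8 and 47.9 RPM in OMP, against 0.01 and 5.27 RPM in TRPC2. tekt2 had 7.37 and 5.82 RPM in OMP, against no read and 0.01 RPM in TRPC2, and the weakly read tekt3 had 0.25 and 0.45 RPM in OMP and no read in TRPC2. The OMP mean of tekt3 was at least 10.1-fold higher than the TRPC2 floor.

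The remaining cfap genes held one exception as well. cfap58, needed for the sperm flagellum in mammals, had 30.9 and 23.2 RPM in OMP, against 0.41 and 0.49 RPM in TRPC2, with a log2 fold change of 5.12 (standard error 0.71, unadjusted p = 0.00103 from edgeR). cfap57 had 39.96 and 33.8 RPM in OMP, against 7.53 and 5.95 RPM in TRPC2. cfap97 had 18.0 and 28.5 RPM in OMP, against 3.45 and 3.30 RPM in TRPC2. The 3 genes had TRPC2 libraries close to each other and below OMP. cfap43, a protein of the sperm flagellum in mammals, had 16.3 and 18.4 RPM in OMP, against no read and 3.02 RPM in TRPC2. cfap36 was the exception, with 21.7 and 22.1 RPM in OMP, against 10.7 and 38.7 RPM in TRPC2. The product of its human ortholog binds the small GTPase ARL3, which also serves immotile cilia.

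The parts were alike in direction and unlike in size. All 10 sums were higher in both OMP libraries than in either TRPC2 library. The ratio of class means was 26.3 for ruler and regulatory complex, 16.8 for inner arm heavy chains, 15.5 for the central pair and 10.9 for assembly and docking. It was 6.39 for radial spokes, 5.33 for transcription factors, 4.53 for outer arm heavy chains, 3.89 for intermediate and light chains, 3.56 for tektins and doublet inner proteins and 3.44 for the other cfap genes. These are ratios of RPM without TMM scaling, and no ratio over all genes is set beside them. The differences between parts were not tested, and each part rests on 2 to 9 genes. The order depends on single libraries and on the capital rows described below. Without the first TRPC2 library the ratio for assembly and docking was 21.03, and without the second it was 7.36. For the other cfap genes it was 5.71 without the second TRPC2 library, when tektins and doublet inner proteins had the lowest ratio, 2.72. With the capital rows included it was 12.05 for inner arm and 11.4 for outer arm heavy chains, 10.1 for the central pair and 3.75 for radial spokes. The ruler and regulatory complex had the highest ratio with the capital rows included and whichever library was left out, between 24.6 and 28.1. That rank holds for the genes that the rule matched. The regulatory complex subunit gas8, outside the rule, was in none of these sums, and the order of the parts with it was not computed.

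**Figure D3:**
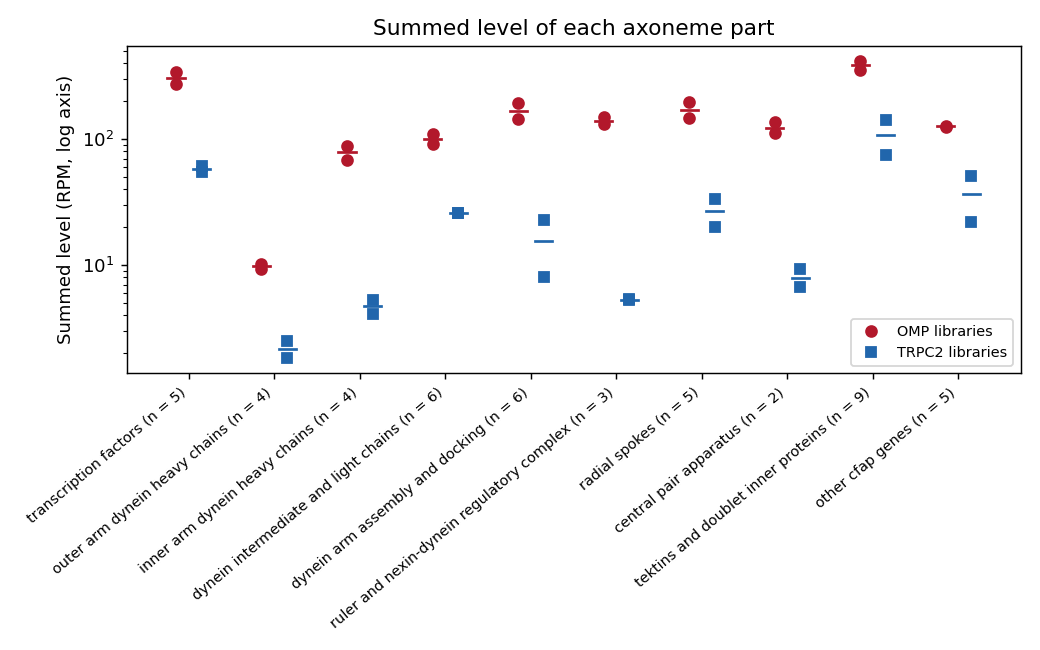
Summed level in RPM (log axis) of the genes of each axoneme part in every library, with OMP libraries as circles left of TRPC2 libraries as squares and short lines for the class means. The widest gap is that of the ruler and regulatory complex, at 131 and 149.8 RPM in OMP and 5.26 and 5.41 RPM in TRPC2, and the narrowest that of the other cfap genes, at 127 and 125.9 RPM in OMP and 22.1 and 51.4 RPM in TRPC2.

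The 2 libraries of a class agreed far better in OMP. On the log2(RPM + 0.5) scale the median absolute difference between the 2 libraries over the 49 genes was 0.32 in OMP and 0.78 in TRPC2, and over all tested genes it was 0.30 in OMP and 0.70 in TRPC2. The libraries differed more than 2-fold for 1 gene in OMP, rfx4, and for 22 genes in TRPC2, and more than 4-fold for 0 genes in OMP and 12 in TRPC2. Of all 21026 tested genes, 1594 in OMP and 8394 in TRPC2 differed more than 2-fold, and 202 and 3804 more than 4-fold. In OMP 34 of the 49 genes were higher in the second library, against 10097 of all 21026 tested genes. In TRPC2 22 genes were higher in the second library and 23 in the first, against 8948 and 9530 of all tested genes. Axoneme genes thus had no common order between the TRPC2 libraries.

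**Figure D4:**
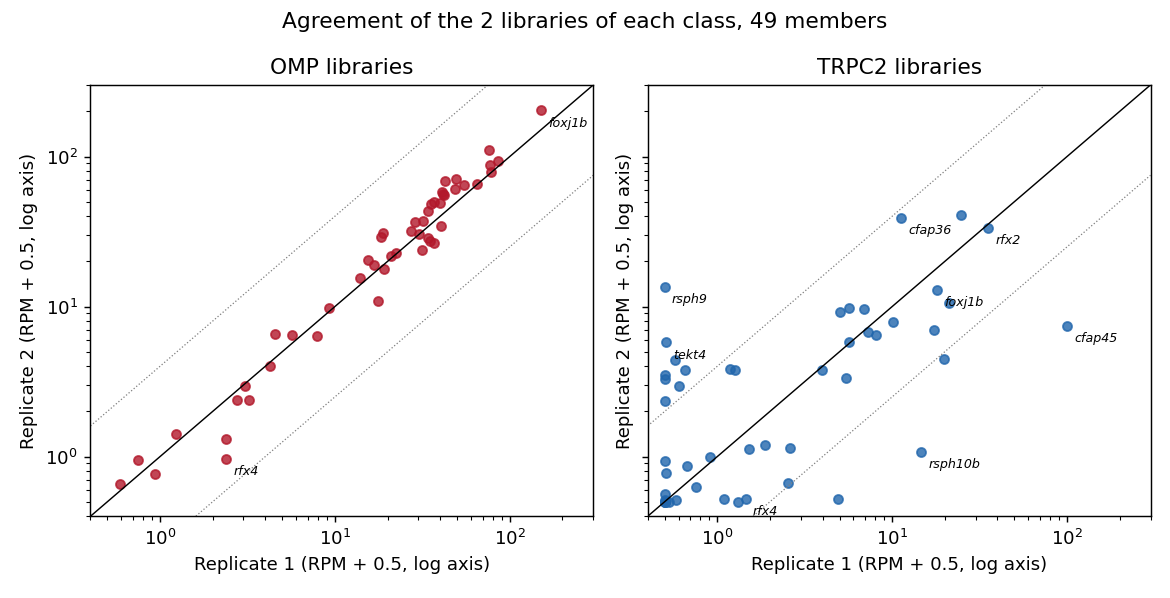
Level of the 49 genes in replicate 2 against replicate 1 (RPM + 0.5, log axes) for the OMP class on the left and the TRPC2 class on the right, with the line of equality and dotted lines at 4-fold. No gene leaves the dotted band in OMP and 12 do in TRPC2, among them cfap45 at 99.1 and 6.90 RPM, rsph10b at 14.2 and 0.57 RPM and rsph9 at 0 and 13.1 RPM.

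A further 18 rows of the tables match the rule only when case is ignored, since the files give them in capitals. These rows hold genes that fill gaps in the list, among them the second ruler gene and more heavy chains. The classes were apart for 17 of the 18, each time with OMP on top, against 53.3% of all genes, and overlapped for 1. The summed level was 358 and 364 RPM in OMP, against 130 and 68.1 RPM in TRPC2. CCDC39, the partner of ccdc40, had 25.0 and 24.9 RPM in OMP, against 1 and 0.69 RPM in TRPC2, with a log2 fold change of 4.11 (standard error 0.68, unadjusted p = 0.0023 from edgeR). The inner arm heavy chain DNAH2 had 28.3 and 21.6 RPM in OMP, against 1.38 and 2.31 RPM in TRPC2. Its partner in the same arm, DNAH10, had 24.3 and 15.2 RPM in OMP, against 6.12 and 1.61 RPM in TRPC2. The outer arm heavy chain DNAH8 had 12.3 and 12.9 RPM in OMP, against no read and 0.27 RPM in TRPC2. Heavy chains of both arms were hence on the OMP side in these rows too. SPAG16, a central pair protein, had 3 and 4.31 RPM in OMP and no read in TRPC2, and SPAG17 had 10.2 and 10.1 RPM in OMP, against 3.04 and 0.01 RPM in TRPC2. RSPH1, a spoke head protein, was closer between classes, with 72.9 and 83.1 RPM in OMP, against 52.3 and 31.6 RPM in TRPC2 and a log2 fold change of 0.12 (standard error 0.38). Rows such as DNAH11 and dnah11, or DNAI1_(1_of_2) and dnai1, carry the same name, and how reads were divided between them is not given in the sources used here.

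Other genes of the axoneme or tied to its assembly, listed by name and outside the rule, followed the same direction with a smaller median. The list may hold genes that also act elsewhere, and what lies behind the smaller median was not tested. Of 63 such genes, 55 had both OMP libraries on top, or 87.3% against 53.3% of all genes, and 2 had both TRPC2 libraries on top, against 5.61%, and the median log2 fold change was 1.64. edgeR called 0 of the 63 at an adjusted p under 0.05, while at an unadjusted p under 0.05 it had 21 higher in OMP, or 33.3% against 23.3% of all genes, and 1 higher in TRPC2, against 7.18%. DESeq2 called 18 higher in OMP, or 28.6% against 13.2% of all genes with an adjusted p, and 1 higher in TRPC2, against 5.78%. limma called 29 higher in OMP, or 46% against 23.5% of all genes, and 0 higher in TRPC2, against 0.785%. The central pair gene hydin had 99.7 and 69.9 RPM in OMP, against 0.42 and 15.5 RPM in TRPC2. gas8, a subunit of the nexin-dynein regulatory complex, had 42.0 and 51.9 RPM in OMP, against 5.83 and 10.1 RPM in TRPC2. The outer arm docking gene armc4 had 28.9 and 29.4 RPM in OMP, against 8.44 and 4.98 RPM in TRPC2. The gene with the highest mean of the list was capsla, with 191 and 217 RPM in OMP, against 40.9 and 70.8 RPM in TRPC2. The flagellar gene enkur had 113 and 124 RPM in OMP, against 32.1 and 31.95 RPM in TRPC2. The 2 genes on the TRPC2 side were mycbp, the second highest by mean, with 66.8 and 76.8 RPM in OMP against 92.3 and 176 RPM in TRPC2, and spag1b, with 8.19 and 7.74 RPM in OMP against 13.5 and 9.04 RPM in TRPC2.

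Genes that build cilia of every kind differed less. Of 39 genes of intraflagellar transport, the BBSome and ciliary kinesins, 33 had both OMP libraries on top, or 84.6%, against 53.3% of all genes. Both TRPC2 libraries were on top for 0 of them, against 5.61% of all genes. The share of 84.6% was close to the 87.8% of the axoneme genes. The median log2 fold change, however, was 0.53, near the 0.49 of all tested genes and below the 2.78 of the axoneme genes. The list summed to 1158 and 1254 RPM in OMP, against 520.1 and 395 RPM in TRPC2, a ratio of 2.64, where the axoneme genes had 5.54. Within each library, the axoneme sum divided by the transport sum was 1.28 and 1.40 in OMP, against 0.63 and 0.65 in TRPC2. This ratio does not depend on the scaling of the library, and its classes did not overlap. The transport gene ift88 had 37.7 and 54.5 RPM in OMP, against 19.2 and 20.96 RPM in TRPC2, and the motor subunit kif3a had 58.8 and 62.7 RPM in OMP, against 56.1 and 39.1 RPM in TRPC2. Set against 12 genes of ciliated OSNs, the axoneme sum was 1.39 and 1.53 times theirs in OMP, against 2.24 and 1.65 times theirs in TRPC2. The axoneme sum was therefore lower in TRPC2 relative to the transport sum, but not relative to the sum of ciliated OSN genes. That last list holds ompa and ompb, and an OMP promoter drove the sorted marker. Part of its class difference may thus have been set by the sort. Without cfap45 the axoneme sum in the first TRPC2 library was 228 RPM in place of 327 RPM.

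Other cells that carry motile cilia were looked for with listed genes, some of which also act in other cells. Of 15 listed regulators of multiciliated cells 10 were among the rows, and the defining genes mcidas, ccno and deup1 were not among them. gmnc, which starts the multiciliated programme, had 8.59 and 6.84 RPM in OMP, against 5.08 and 1.58 RPM in TRPC2. The 10 regulators summed to 139 and 125 RPM in OMP, against 127 and 60.4 RPM in TRPC2. Both OMP libraries were on top for 7 of the 10, against 53.3% of all genes, and both TRPC2 libraries for 1, against 5.61%. Their median log2 fold change was 0.74, against 0.49 over all tested genes. At an unadjusted p under 0.05 edgeR had 0 of the 10 in either direction, against 23.3% of all genes higher in OMP and 7.18% higher in TRPC2. The highest of the regulators was foxn4, at 45.2 and 36.9 RPM in OMP and 71.5 and 27.4 RPM in TRPC2, which also acts in neurons. Without mcidas, ccno and deup1 the list cannot tell how multiciliated cells differed between the sorts. The part of multiciliated cells in the axoneme difference was not tested. Hair cells, whose kinocilium contains an axoneme, gave a mixed picture. pou4f3 had 0.20 and 0.29 RPM in OMP and no read in TRPC2, and otofb had 0.19 and 1.34 RPM in OMP, against 0.01 RPM and no read in TRPC2. Other genes of the list were read in TRPC2, among them the synaptic gene otofa, with 4.37 and 4.96 RPM in OMP, against no read and 21.01 RPM in TRPC2, and the regulator atoh1a, with 1.25 and 1.05 RPM in OMP, against 6.13 RPM and no read in TRPC2. The log2 fold change of myo6b was -2.46 (standard error 0.63, unadjusted p = 0.0128 from edgeR). Of the 19 hair cell genes, 12 had both OMP libraries on top, against 53.3% of all genes. Both TRPC2 libraries were on top for 1, against 5.61%. Of the 5 with a mean above 1 RPM, 0 had OMP on top and 1 had TRPC2 on top, against 53.2% and 9.60% of genes at that level. The median log2 fold change of the 17 tested hair cell genes was 4.65, against 0.49 over all tested genes. At an unadjusted p under 0.05 edgeR had 10 of the 17 higher in OMP, or 58.8% against 23.3% of all genes. It had 1 higher in TRPC2, against 7.18%. Many were weakly read, and 10 of the 19 had no read in the first TRPC2 library and 11 in the second. The 19 hair cell genes summed to 26.1 and 48.7 RPM in OMP, against 54.3 and 41.98 RPM in TRPC2, and their part in the result was not tested.

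Genes whose pattern over the 4 libraries was most like that of foxj1b were sought among the 7484 other genes with a mean above 10 RPM, by the summed absolute difference of centred log2(RPM + 0.5) values. The nearest 5 were outside the axoneme list: spry2 at a distance of 0.32, slc35c2 at 0.37, lgals3l at 0.44, OSBPL1A_(1_of_2) at 0.49 and hacd3 at 0.53. The receptor signalling inhibitor spry2, for example, had 45.3 and 60.8 RPM in OMP, against 4.74 and 2.83 RPM in TRPC2. Among axoneme genes cfap52 came at rank 9, at a distance of 0.56, ccdc40 at rank 23 and spag6 at rank 32. With 4 libraries in 2 classes, many genes share such a pattern, and nothing about shared control follows from it.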

How the data were processed

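The 4 libraries were made from FAC sorted cells. STAR (mapping to GRCz10) and VERSE (counting over genes) made the deposited counts, which are whole numbers listed by gene symbol. For versions, annotation and strand the sources used here give nothing. The deposited RPM are these counts scaled by the authors to a library total above the sum over genes, rounded to 2 decimals. Gene reads per library were 49483362 to 84599818.

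Groups came from the sample titles. Counts were tested with edgeR 4.0.16 in R 4.3.3 (quasi-likelihood test, TMM, default filterByExpr, a model with class alone, p adjusted by Benjamini-Hochberg over 21026 genes). The standard error is the log2 fold change divided by the root of the F statistic. The TMM scaling gave a median log2 fold change of 0.49 over all tested genes. DESeq2 1.42.0 and limma 3.58.1 (with a trend) were alternatives, as were other scalings and filters, a fit with the replicate number as a block, and fits without each library. Genes that DESeq2 gave no adjusted p stayed out of its counts. The fit was tested on simulated data, where it returned the folds put in, but at the spread estimated from these libraries it called none of the changed genes, so an edgeR count of 0 says little. Ratios of part sums without single libraries or with capital rows were added after seeing the data. A p-value here reflects only how far the 4 libraries spread, labelled biological replicates, which may be partly technical.

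Genes were assigned to parts by symbol. Values in every library were to be given for foxj1b, ccdc40, spag6, the 2 genes of highest mean RPM in each part, genes above in TRPC2 and those of smallest p. The other members were added to account for each gene, and genes of other lists were named as examples, some of them after their values were seen. The members and lists were chosen with earlier results of these data known. Sequences and promoter motifs were not analysed here. Symbols were used as the files give them.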

Additional observations from a re-analysis of the deposited data

How the results depend on the processing

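At an adjusted p under 0.05, edgeR called 0 axoneme genes in either direction with DESeq2's size factors, with library totals only, without a filter, without red blood cell genes and with at least 100 counts in 2 libraries. By contrast DESeq2 called 24 higher in OMP (13.2% of all genes), limma called 30 on log2(RPM + 0.5) (23.5%) and 26 on log2(RPM + 0.1) (25.4%), and the replicate block gave 15, each with 0 higher in TRPC2. Over all genes the block called 1.56% higher in OMP and 1.27% higher in TRPC2. No label pairs the libraries beyond the replicate number, and over 21026 genes the correlation of deviations between libraries of one number was -0.00037. With 1 library left out, edgeR called 0 to 39 axoneme genes higher in OMP and 0 to 2 higher in TRPC2, against 0.272% to 34.9% of all genes higher in OMP and 0.227% to 16.4% higher in TRPC2. The high ends came without the first TRPC2 library (39) and without the second (37), and the low ends without the second OMP library (0) and without the first (2).

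The median log2 fold change of the tested axoneme genes, 2.78, became 3.42 on library totals, 3.12 and 3.74 in limma at the larger and the smaller pseudocount, 3.39 under the replicate block, and between 2.53 and 3.599 when one library was dropped. The median over all genes was 0.49, and it became 1.13 on library totals, 0.36 with DESeq2's size factors and 0.91 and 1.504 with limma. The count of 43 genes with both OMP libraries on top stayed at 43 per gene total, against 50.1% of all genes. It was also 43 in thinned counts, against 48.8%, and with red blood cell genes removed from the totals, against 52.97%. With case ignored it was 60 of 67, against 53.3% of all genes. With a library left out it was 43 to 46, where 60.1% to 65.3% of all genes had OMP on top. The count of 1 on the TRPC2 side was 0 with red blood cell genes removed from the totals, against 5.69% of all genes. It was 1 to 3 when one library was dropped, where 6.74% to 15.7% of all genes had TRPC2 on top. The 3 came without the first TRPC2 library, and the count was 2 without the second. The 31 genes above 1 RPM in TRPC2 became 17 where both libraries had to pass. The count without a library ranged from 23 to 27 in TRPC2.

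Of 26 named genes, 13 moved by over 1.5 times in fold when a single TRPC2 library was dropped, and 6 changed sign under some setting. The log2 fold change of cfap20, 0.21, lay between -0.28 (without the first TRPC2 library) and 0.68 (without the second). That of cfap36, -0.98, was 0.094 and 0.10 with limma, and lay between -1.78 (without the first TRPC2 library) and 0.28 (without the second). That of cfap45, -0.12, became 0.34 on library totals, 1.59 and 1.63 in limma and 0.85 under the block, and lay between -1.02 (without the second TRPC2 library) and 2.60 (without the first). That of dnah9, -0.30, became 0.64 on library totals, 0.70 and 1.604 in limma and 2.64 under the block, was 0.17 without the second OMP library, and lay between -1.43 (without the first TRPC2 library) and 9.93 (without the second). That of dnal4a, -0.61, became 0.29 on library totals, 0.81 and 1.52 in limma and 1.29 under the block, and lay between -1.72 (without the first TRPC2 library) and 4.32 (without the second). That of rfx4, 0.51, was -0.45 without the second TRPC2 library, and lay between -0.81 (without the first OMP library) and 4.61 (without the first TRPC2 library). What causes these shifts was not tested.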
